A study of Mus musculus with 2 samples.

Results

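Chromatin modifiers and remodellers were examined in the lungs of carcinogen-treated wild-type and Rosa26-Foxm1 mice. The members were every gene whose symbol marks it as a histone deacetylase (Hdac), sirtuin (Sirt), lysine demethylase (Kdm), lysine methyltransferase (Kmt, Ezh, Suv39, Setd), lysine acetyltransferase (Kat), SWI/SNF-related factor (Smarc), CHD remodeller, DNA methyltransferase (Dnmt), TET dioxygenase or chromobox protein (Cbx). The rule reads gene names and no measured value, and it was set with earlier results of these data known. Of 13840 genes named by a probe that carries 1 gene, 66 were members, measured by 72 probes. Another 38 protein-coding genes with such a name, among them the 3 TET genes, had no probe in the annotation used here and were not analysed here.

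DNA in the nucleus is wound on histones, and these proteins set how tightly it is packed. Writers place acetyl or methyl groups on histones or methyl groups on DNA, erasers remove them, readers such as the chromobox proteins bind them, and remodellers use ATP to slide or evict nucleosomes. In lung, such enzymes are known from alveolar and vascular development, from inflammatory gene control in macrophages and from mutations in lung cancer.

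The series compared 2 groups with 1 array each. Each array carried RNA from left lung lobes of 3 mice that were pooled, taken 12 weeks after 3-methylcholanthrene, a carcinogen given once into the peritoneum at 15 µg per g body weight. All mice of both groups also received the lung tumour promoter butylated hydroxytoluene in 6 weekly injections, at 150 µg/g first and 200 µg/g later. The labels of the wild-type pool give the strain FVB/N and male sex. The other pool came from Rosa26-Foxm1 mice, transgenic for the proliferation-associated forkhead transcription factor Foxm1 with a name that refers to the widely active Rosa26 locus, and the labels used here give neither strain nor sex for that pool.

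The values are linear probe intensities in arbitrary units, which were quantile normalised between the arrays. Intensities at or under the median of an array, 1.00 after normalisation, were set to that floor. Each group is 1 array, so the spread among mice is unknown and no test was made; differences are those of these 2 pools. Values set against each other give wild type first. The probe SD, the error of a single probe's log2 difference estimated from pairs of probes of the same gene, was 0.31 over 317 genes, with 0.37 for dimmer and 0.23 for brighter pairs. Foxm1 lay close to the floor at 1.13 against 1.23, and no source used here says whether its probe sees the transgene. Lung markers were bright in both pools, with Sftpc of type II cells at 1228 and 856 and Scgb1a1 of club cells at 2529 and 1767. In bulk tissue, fewer cells of a type and less RNA per cell cannot be told apart.

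As a group, chromatin genes were slightly lower in Rosa26-Foxm1 lung, and few of them differed by much. Of 66 members, 57 were above the floor on at least 1 array, 54 of them on both. Among these 57, 40 were below 0 on the log2 scale and 17 above, with a median difference of -0.17. Over all 9518 measured genes the median was -0.06, and 56.0% were below 0 against 70.2% of the members. At least 1.5-fold lower were 9 members, 15.8% of those measured, beside 8.45% of all measured genes. That order turned with the floor: with a floor at the 75th percentile, 1 of 34 members was lower, 2.94%, beside 5.24% of all genes measured there. At least 1.5-fold higher were 2 members, 3.51%, beside 7.07% of all measured genes. At the 2-fold size 1 member was higher and 1 lower, or 1.75% each, beside 1.98% and 1.51% of all measured genes. The lower count was 3 with median scaling or in the deposited values, where Hdac7 and Kdm8 joined Kat7. That was 5.26% of members beside 1.70% of all measured genes. The differences of 34 members, 59.6%, were within 1 probe SD of 0, close to the 56.5% of all measured genes.

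**Figure D1:**
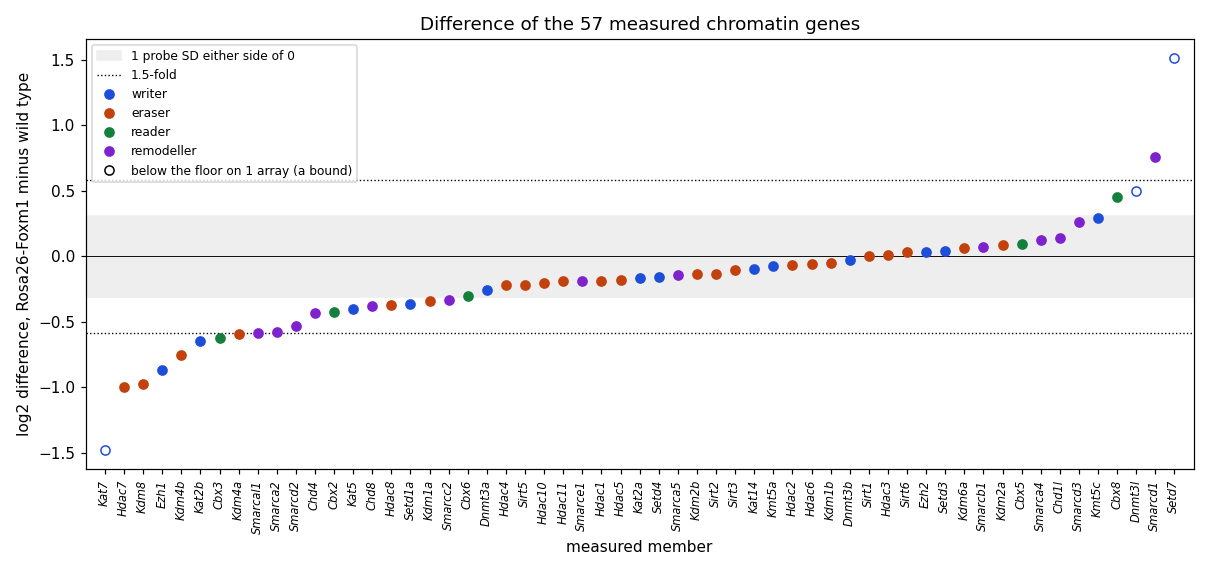
The log2 difference of each of the 57 measured members (Rosa26-Foxm1 minus wild type, vertical axis), ordered from lowest to highest and coloured by role; the grey band is 1 probe SD (0.31) either side of 0, dotted lines mark 1.5-fold, and open circles are bounds because 1 array was below the floor. The 9 members under the lower line run from Kat7 at -1.48 to Smarcal1 at -0.59, and the 2 above the upper line are Smarcd1 at 0.76 and Setd7 at 1.51.

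The lower side was led by Kat7, the acetyltransferase also called HBO1, which licenses replication origins. It measured 2.79 in wild-type lung and 0.79 in Rosa26-Foxm1 lung, where it was below the floor, so it was at least 2.78-fold lower. Hdac7, a class IIa deacetylase needed for vascular integrity in the embryo, followed at 7.39 against 3.70, a log2 difference of -0.997, just short of 2-fold here and past it at -1.04 with median scaling or in the deposited values. The other 7 were the JmjC-domain oxygenase Kdm8 (2.04 against 1.04), Ezh1, Kdm4b, Kat2b, Cbx3, Kdm4a and Smarcal1. On the higher side, Setd7, a methyltransferase of histone H3 and of many non-histone proteins, went from 0.86, under the floor, to 2.86, at least 2.85-fold higher. Smarcd1, an accessory subunit of SWI/SNF complexes, was 1.40 against 2.37, or 1.69-fold higher. Just outside the 1.5-fold size lay Smarca2 at -0.58 and Dnmt3l at 0.50, the latter a bound.

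The start-site sequences of these 4 genes at the ends of the order are shown because a reader may wish to see what lies in front of them. They are RefSeq promoters of GRCm38.p6, from 250 bases before to 50 after the annotated start, 5′ to 3′ on the strand of the gene. Capitals mark matches, on either strand, to 4 motifs known from cell cycle and Foxm1 targets: the CHR element TTTGAA, the forkhead motif GTAAACA, the E2F motif TTTCCCGC and the CCAAT box. Hdac7 has several starts in the table, and the one shown was taken because it holds a match.
Setd7, chr3:51560774-51561073, minus strand: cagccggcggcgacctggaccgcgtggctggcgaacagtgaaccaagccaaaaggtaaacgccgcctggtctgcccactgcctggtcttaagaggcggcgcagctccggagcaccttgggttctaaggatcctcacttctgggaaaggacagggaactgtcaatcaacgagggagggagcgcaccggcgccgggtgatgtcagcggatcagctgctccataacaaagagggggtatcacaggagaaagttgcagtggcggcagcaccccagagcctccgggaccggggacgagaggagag
Smarcd1, chr15:99702037-99702336, plus strand: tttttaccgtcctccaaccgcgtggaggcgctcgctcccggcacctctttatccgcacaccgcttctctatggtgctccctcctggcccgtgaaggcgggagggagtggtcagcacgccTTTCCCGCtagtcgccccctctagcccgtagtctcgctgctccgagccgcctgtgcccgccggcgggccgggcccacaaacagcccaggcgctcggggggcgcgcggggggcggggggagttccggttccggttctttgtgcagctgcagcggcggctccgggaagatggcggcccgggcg
Hdac7, chr15:97831718-97832017, minus strand: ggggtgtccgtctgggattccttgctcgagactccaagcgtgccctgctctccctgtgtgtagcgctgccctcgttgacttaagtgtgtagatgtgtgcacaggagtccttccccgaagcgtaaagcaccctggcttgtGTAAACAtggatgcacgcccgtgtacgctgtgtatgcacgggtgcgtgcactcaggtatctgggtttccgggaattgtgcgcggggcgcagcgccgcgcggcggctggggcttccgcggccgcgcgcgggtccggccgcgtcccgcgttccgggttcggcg
Kat7, chr11:95310197-95310496, minus strand: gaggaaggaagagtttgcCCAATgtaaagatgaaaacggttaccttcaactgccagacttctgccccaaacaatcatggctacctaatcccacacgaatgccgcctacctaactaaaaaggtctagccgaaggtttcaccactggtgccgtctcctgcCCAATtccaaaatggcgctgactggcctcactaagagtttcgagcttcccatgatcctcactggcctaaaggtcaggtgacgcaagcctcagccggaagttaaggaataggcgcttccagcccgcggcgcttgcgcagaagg

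Setd7 had no match in this window, Smarcd1 an E2F match 131 bases before the start, Hdac7 a forkhead match 111 bases before it, and Kat7 CCAAT boxes 232 and 92 bases before it. The table held 82 promoters of 59 members. They were rich in G and C, with a median of 62.8% and 24 CpG dinucleotides, beside 52.7% and 7 in all 32851 promoters. The CHR element was in 12.2% of member promoters and 17.9% of all, the forkhead motif in 2.44% and 3.65%, the E2F motif in 2.44% and 1.07%, and the CCAAT box in 42.7% and 37.4%. Matches of different motifs did not overlap in the member promoters. The 8 measured members with a CHR element ran from Kdm8 at -0.98, Kat2b, Smarcal1, Kat5 and Hdac8 to Hdac6 at -0.06, Kdm1b at -0.05 and Dnmt3b at -0.03. Their median was -0.39, and that of the 42 without one -0.14. Over all measured genes with a promoter in the table the medians lay the other way, at -0.04 for the 1160 with the element and -0.06 for the 6566 without it. The E2F motif was in the promoters of 2 members, Smarcd1 and the histone H4 methyltransferase Kmt5c, which differed by 0.76 and 0.30. Over all measured genes the medians were 0.01 for the 166 with that motif and -0.06 for the 7560 without it. The forkhead motif was in promoters of 2 members, Hdac7 (-0.997) and Kdm2b (-0.13). Over all measured genes the medians were -0.05 for the 254 with it and -0.06 for the 7472 without it. These are letter matches, and binding was not measured.

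Acetyltransferases had the lowest median among the families with at least 4 measured members. Over all measured genes, 56.0% were below 0 and 8.45% at least 1.5-fold lower. All 5 acetyltransferases that were measured were below 0, with a median of -0.40, and 2 were at least 1.5-fold lower. Besides Kat7 this was Kat2b, the coactivator PCAF, at 9.87 against 6.31 (-0.64, 1.56-fold lower). Its paralogue Kat2a, the GCN5 enzyme of the SAGA complex, was 14.2 against 12.6 (-0.17). The 2 paralogues differed from each other by 0.48, about as much as the error of such a contrast, 0.44 (the probe SD times the square root of 2). Kat5, the Tip60 enzyme of DNA damage signalling, was 28.3 against 21.4 (-0.40), and Kat14 of the ATAC complex 47.9 against 44.9 (-0.09). Kat6b stayed under the floor on both arrays.

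Histone deacetylases were nearly all slightly lower. Of 10 measured, 9 were below 0, or 90%, beside 70.2% of all members and 56.0% of all measured genes. The deacetylase median was -0.19, beside -0.17 for all members. Of the 10, 8 lay within 1 probe SD of 0. The class I enzymes, the catalytic subunits of nuclear corepressor complexes, differed little: Hdac1 was 26.5 against 23.3 (-0.18), Hdac2 53.5 against 51.0 (-0.07) and Hdac3 40.1 against 40.3 (0.01). Hdac8, which deacetylates cohesin, was closer to the floor at 2.16 against 1.67 (-0.38). Among the class IIa enzymes, signal-dependent corepressors, Hdac7 stood apart from Hdac4 (15.1 against 12.9, -0.22) and Hdac5 (61.5 against 54.2, -0.18), by 0.77 and 0.81. The cytoplasmic tubulin deacetylase Hdac6 was at -0.06 and Hdac11 at -0.19. Hdac10, a polyamine deacetylase and the brightest member, was 297 against 258 (-0.20), but its deposited intensities, before quantile normalisation, were 277 and 278. Its sign thus depends on the scaling.

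Sirtuins, the NAD-dependent deacylases, differed little. All 5 measured lay within 1 probe SD of 0, from Sirt5, a mitochondrial desuccinylase, at -0.22 to Sirt6, which guards telomeric and damaged chromatin, at 0.03. Sirt1 was 8.05 against 8.06. Sirt2 was 70.5 against 64.4 (-0.13) and the mitochondrial Sirt3 47.1 against 43.8 (-0.10).

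Lysine demethylases showed 3 members at least 1.5-fold lower and none higher among 8 measured, beside 8.45% and 7.07% of all measured genes. Their median was -0.24, or -0.13 with the gene length trend subtracted. The 3, Kdm8, Kdm4b and Kdm4a, belong to the JmjC class, which uses iron and oxoglutarate. That class makes up 6 of the 8 measured. Kdm8, at 2.04 against 1.04, came close to the floor of 1.00 in Rosa26-Foxm1 lung. Kdm4b, which removes methyl groups from histone H3 in heterochromatin and gene bodies, was 13.2 against 7.82 (-0.75, 1.68-fold lower), and its paralogue Kdm4a 5.27 against 3.50 (-0.59, 1.51-fold lower). The KDM4 pair was 0.16 apart. Kdm4a fell short of 1.5-fold with loess scaling, at -0.57, and with the gene length trend subtracted, at -0.53. Kdm2a (0.09) and Kdm2b (-0.13), which bind unmethylated CpG islands, and Kdm6a (0.06), the X-linked demethylase of the Polycomb mark, were within 1 probe SD of 0. Of the flavin-dependent enzymes, Kdm1a (LSD1) was 20.3 against 16.0 (-0.34) and Kdm1b 10.4 against 10.03 (-0.05).

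Kdm5c, Kdm5d and Kdm4d were below the floor in both pools. Kdm5d is on the Y chromosome and was at 0.35 in wild-type lung, although those mice were labelled male. Eif2s3y, another Y-linked gene, was 7.11 against 7.24, whereas Uty, also Y-linked, was below the floor on both arrays at 0.79 and 0.35.

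**Figure D2:**
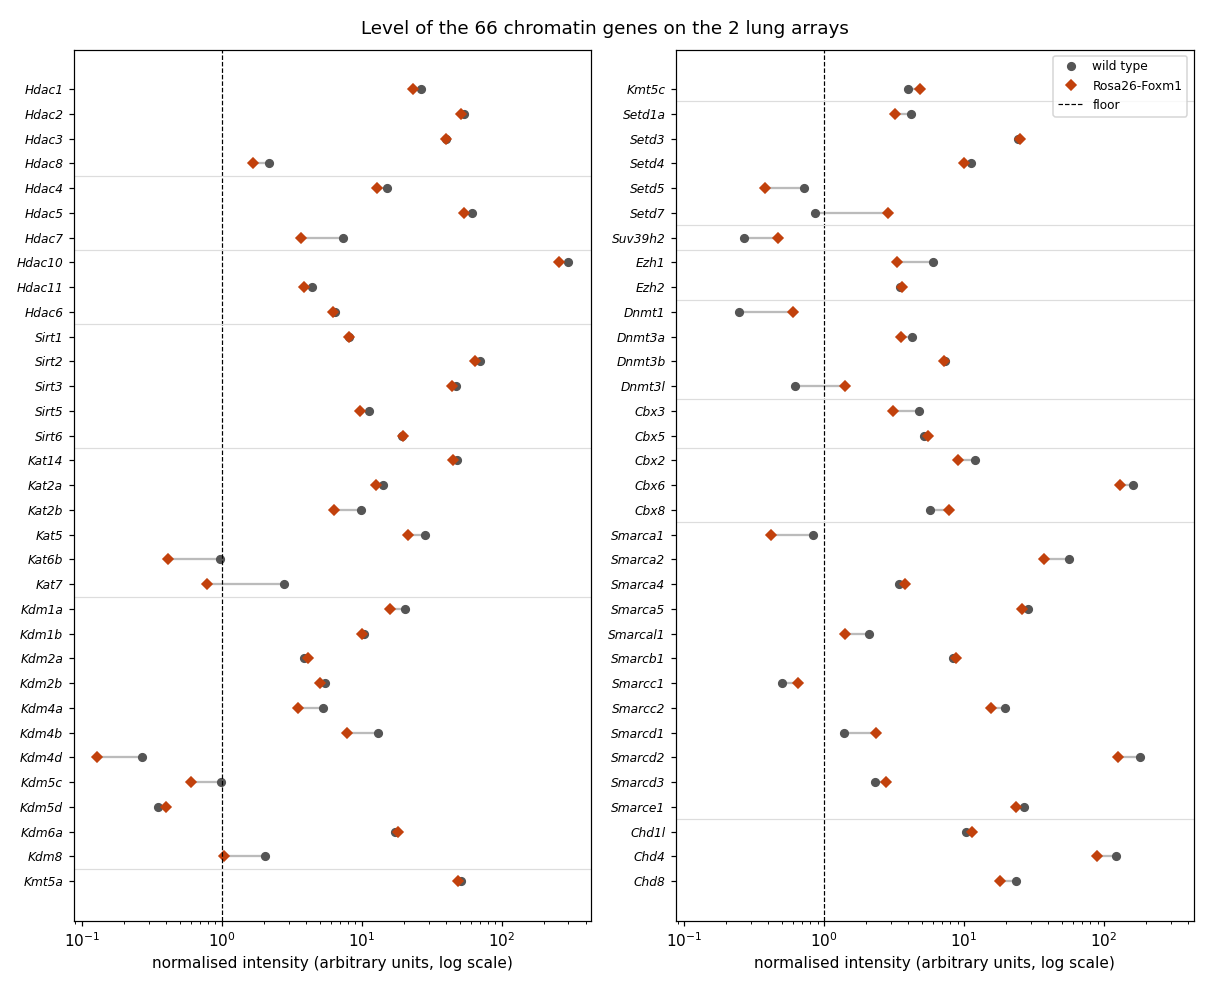
Normalised intensity (horizontal axis, arbitrary units, log scale) of all 66 members on the wild-type array (grey circles) and the Rosa26-Foxm1 array (orange diamonds), with families separated by thin lines; the dashed line is the floor of 1.00. The 9 members with both symbols left of the floor have no usable difference, and Kat7, Setd7 and Dnmt3l cross it.

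Histone methyltransferases did not share a direction. Ezh1 and Ezh2 are the alternative catalytic subunits of Polycomb repressive complex PRC2, Ezh1 being known from resting and Ezh2 from dividing cells. Ezh1 was 6.03 against 3.31 (-0.86, 1.82-fold lower), whereas Ezh2 was 3.51 against 3.59 (0.03). The contrast between them was 0.90, against an error of 0.44. That error comes from the probe SD over all pairs and leaves out the spread among mice. Both genes were dim, and dimmer pairs had a probe SD of 0.37, so the error may be larger here. Of the SET domain family, Setd7 at 1.51 was above and Setd1a, a catalytic subunit of a COMPASS complex, at -0.37 below (4.17 against 3.23). Setd3, which methylates actin, differed by 0.04 and Setd4 by -0.16. The histone H4 methyltransferases Kmt5a (51.5 against 48.9) and Kmt5c (3.98 against 4.89) were at -0.08 and 0.30. Neither Setd5 nor the heterochromatin enzyme Suv39h2 reached the floor.

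Of the DNA methyltransferases, Dnmt3a was 4.25 against 3.56 (-0.26) and Dnmt3b 7.34 against 7.21 (-0.03), both de novo enzymes within 1 probe SD of 0. A dimmer Dnmt3b probe was 1.16 against 0.50, below the floor in Rosa26-Foxm1 lung, with a floored difference of -0.21. Dnmt3l, a cofactor with no catalytic activity that is known from germ cells, crossed the floor, from 0.62 to 1.42, and was at least 1.41-fold higher. The maintenance enzyme Dnmt1 was below the floor at 0.25 and 0.60 and gives no difference.

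Chromobox readers also differed within their classes. Cbx3, the HP1 gamma protein that marks heterochromatin and transcribed genes, was 4.77 against 3.10 (-0.62, 1.54-fold lower), and Cbx5, HP1 alpha, 5.16 against 5.51 (0.09). Of the Polycomb chromobox genes, which give PRC1 its affinity for the Polycomb mark, Cbx2 was 12.1 against 8.998 (-0.42) and Cbx6 161 against 130 (-0.30), while Cbx8 was 5.69 against 7.80 (0.45). Cbx8 and Cbx2 were 0.88 apart, and Cbx5 and Cbx3 0.72 apart, against an error of 0.44 that may be larger for the dim Cbx5 and Cbx3.

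Alternative subunits among the SWI/SNF-related genes had differences of unlike sign in these 2 pools. Of 10 measured, 6, or 60%, were below 0, and 1 was at least 1.5-fold lower and 1 higher. Of all measured genes 56.0% were below 0, 8.45% at least 1.5-fold lower and 7.07% higher. The median of the 10 was -0.17. That median was -0.07 with the median over probes and -0.26 with a floor at the 75th percentile. The ATPase Smarca2 (BRM) was 56.2 against 37.6 (-0.58, 1.49-fold lower), and the alternative ATPase Smarca4 (BRG1) 3.46 against 3.77 (0.12). The 3 Smarcd subunits, of which a complex holds 1, spread widely. Smarcd1 was at 0.76, Smarcd3, the form of heart and muscle, at 0.26 (2.30 against 2.76) and Smarcd2, known from granulocyte development, at -0.54 (182 against 125). Smarcd1 and Smarcd2 were 1.30 apart and Smarca4 and Smarca2 0.70. The error of such a contrast was 0.44, which leaves out the spread among mice. Smarca4, Smarcd1 and Smarcd3 were dim, so the error may be larger for their contrasts. The bright Smarcd2 was at -0.41 with median scaling. The core subunit Smarcb1 differed by 0.07, Smarcc2 by -0.34 and Smarce1 by -0.19, with its other probe at -0.10. Smarca5, the ISWI ATPase, was at -0.15 by its brighter probe and 0.16 by a dimmer one. Smarcal1, an annealing helicase of stalled replication forks, was 2.11 against 1.40 (a difference of -0.59), close to the floor. Smarca1 and Smarcc1 were below it on both arrays.

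Of the CHD remodellers, Chd4, the ATPase of the NuRD complex, had 3 measured probes, all lower in Rosa26-Foxm1 lung. The brightest was 121 against 89.6 (-0.44), and the others differed by -0.16 and -0.66. Chd8, which represses beta-catenin targets, was 23.5 against 18.1 (-0.38). Chd1l, a remodeller recruited to DNA breaks, was 10.3 against 11.3 (0.14). The 5 members with several measured probes were Chd4, Dnmt3b, Kdm2b, Smarca5 and Smarce1, and Smarca5 was the 1 whose probes differed in sign.

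Large differences were more frequent among dim probes. In the dimmest tertile of all measured genes (mean intensity up to 4.49), 11.6% of genes were at least 1.5-fold higher and 12.9% lower, and of the 18 members there 2 were higher and 6 lower. In the middle tertile, 5.42% and 6.81% of genes passed that size, and of the 20 members there none was higher and 3 were lower, Hdac7, Kdm4b and Kat2b. In the brightest tertile (mean above 18.3), 4.19% and 5.67% of genes passed that size, and none of the 19 members there did. The median of those 19 was -0.18, against -0.07 for all genes of that tertile, both with quantile scaling. Bright members moved with the scaling. With median scaling Hdac10 was at 0.01 and Cbx6 at -0.16, while Smarca2 stayed lower at -0.52. The medians of the tertile were not taken with that scaling.

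Gene length moved with the differences over the whole array. The longest tertile of measured genes had a median of -0.17 with 12.9% at least 1.5-fold lower, and the shortest tertile a median of 0.09 with 4.64% lower. Members were long, with a median gene span of 31.8 kb beside 20.3 kb for all measured genes. Of the 28 members in the longest tertile, 7 were at least 1.5-fold lower and 1 higher, with a median of -0.20. The 10 members in the shortest tertile had a median of -0.19, with 1 higher and none lower. Spearman's rho of difference and gene span was -0.27 over all measured genes and -0.12 over the 57 members, genes of an array being no independent replicates. After a smooth trend on gene length was subtracted, 7 members were at least 1.5-fold lower and 2 higher. These were 12.3% and 3.51%, beside 7.77% and 6.42% of all measured genes. The median was then -0.12 beside -0.06 for all measured genes.

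Other genes of the same complexes, listed by function, were also slightly lower at the median. Of 189 listed partner genes, 119 were measured, with a median of -0.16. Below 0 were 83, or 69.7%, beside 56.0% of all measured genes. At the 1.5-fold size 3 were higher and 8 lower, 2.52% and 6.72%, each under the 7.07% and 8.45% of all measured genes. Among 7 partners of COMPASS methyltransferases, 6 were below 0 and the median was -0.37. Rbbp5, a core subunit of these complexes, was lowest at -0.67 with Rosa26-Foxm1 lung below the floor, and the cofactor Hcfc1 was 103 against 72.7 (-0.50). Of 12 other histone and arginine methyltransferases, 10 were below 0 and 2 at least 1.5-fold lower, the median was -0.28, and Nsd3 was at -0.64. With a floor at the 25th percentile or none that median was -0.10. Of 17 other acetyltransferases and partners, 13 were below 0 with a median of -0.23, and Tada2a, which like Kat2a and Kat2b belongs to adaptor complexes of that family, was 8.42 against 5.47 (-0.62).

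Polycomb partners had a median of -0.22 over 19 genes. At the 1.5-fold size 2 were lower and 1 higher, beside 8.45% and 7.07% of all measured genes. Phc3 and Phf1 were lowest, both at -0.62, and Pcgf3 highest at 0.59. The PRC2 core subunits Eed and Suz12 differed by -0.11 and -0.37. Of 10 measured SWI/SNF partners, Arid1a, the DNA-binding subunit often mutated in cancers, was lowest at 64.0 against 41.6 (-0.62), and the median was -0.09, or -0.02 with median scaling. Partners of deacetylase complexes showed no common direction, with 10 genes on either side of 0, a median of 0.03 (-0.02 with the gene length trend subtracted) and Gatad2b of NuRD at 0.60 as the 1 past 1.5-fold. Of 6 partners of ISWI, INO80 and SRCAP remodellers, none was past that size, and the median was -0.03. Of 7 DNA methylation readers and partners, Uhrf1, which recruits Dnmt1 to replicating DNA, was highest at 0.72 (1.15 against 1.89), and the median was -0.16. The 4 measured other demethylases included the hairless gene Hr, 3.20 against 1.55 and 2-fold or more lower at -1.05. Of 17 bromodomain readers and histone chaperones, none was past 1.5-fold, and the median was -0.10, or -0.05 with median scaling.

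**Figure D3:**
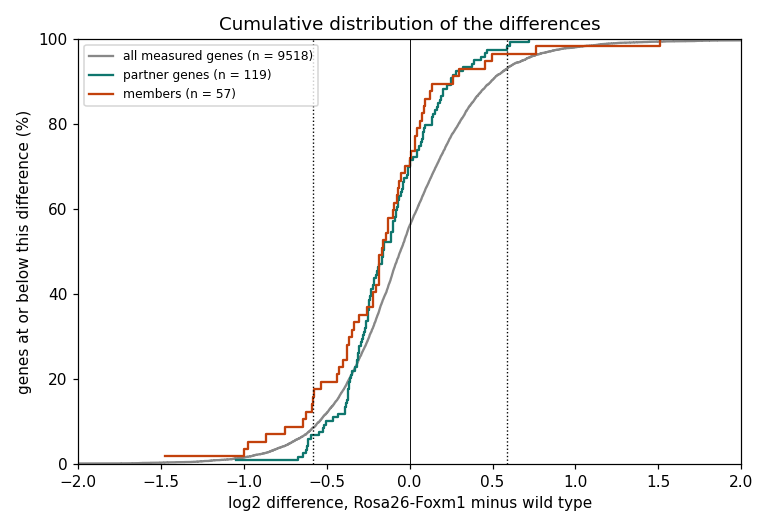
Cumulative share of genes (vertical axis, %) at or below each log2 difference (horizontal axis, Rosa26-Foxm1 minus wild type) for the 57 measured members, the 119 measured partner genes and all 9518 measured genes; dotted lines mark 1.5-fold. The curves of members and partners lie left of that of all genes around 0, with medians of -0.17, -0.16 and -0.06.

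Markers of several cell types differed between the same arrays. The counts stand beside 7.07% of all measured genes at least 1.5-fold higher and 8.45% lower. Of 14 endothelial markers, 13 were below 0 and 8 at least 1.5-fold lower, each reached the floor, and their summed intensity was 2545 against 1630. Of 10 measured markers of dividing cells, 3 were higher (Birc5, Aurka and Bub1), and the sum over all named ones was 134 against 143, while Cdk1 did not reach the floor. Of 8 macrophage markers, 3 were higher and 2 lower, with sums of 661 and 1080, of which Chil3 made up 583 and 787. Of 5 club cell markers, 3 were lower and none higher, with sums of 6048 and 4229, and of 10 fibroblast and smooth muscle markers 1 was lower, with sums of 1245 and 1053. Among 8 neutrophil markers 1 was higher and 3 were lower, with sums of 763 and 565. Of 7 type II cell markers 5 were below 0, with 1 higher and 1 lower at the 1.5-fold size. Their sums were 4799 against 4709, and 3563 against 2952 without Sftpa1. No type I marker of 4 measured was past 1.5-fold (863 against 821, and 262 against 299 without Ager), and 2 of 5 ciliated cell markers were higher (84.8 against 93.1). Of 7 B and plasma cell markers 3 were higher and 2 lower (122 against 473). That sum was carried by Jchain of plasma cells at 49.3 against 411, and without it was 72.3 against 62.7. The B cell markers Ms4a1, Cr2 and Cd79b were at -0.96, -1.62 and -0.54, whereas Cd79a was nearly level at -0.07. Of 6 T cell markers 3 were higher (22.9 against 30.5, and 14.1 against 15.5 without Cd3g). The part of these cell types in the differences of Hdac7, Ezh1 or any other member was not tested.

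**Figure D4:**
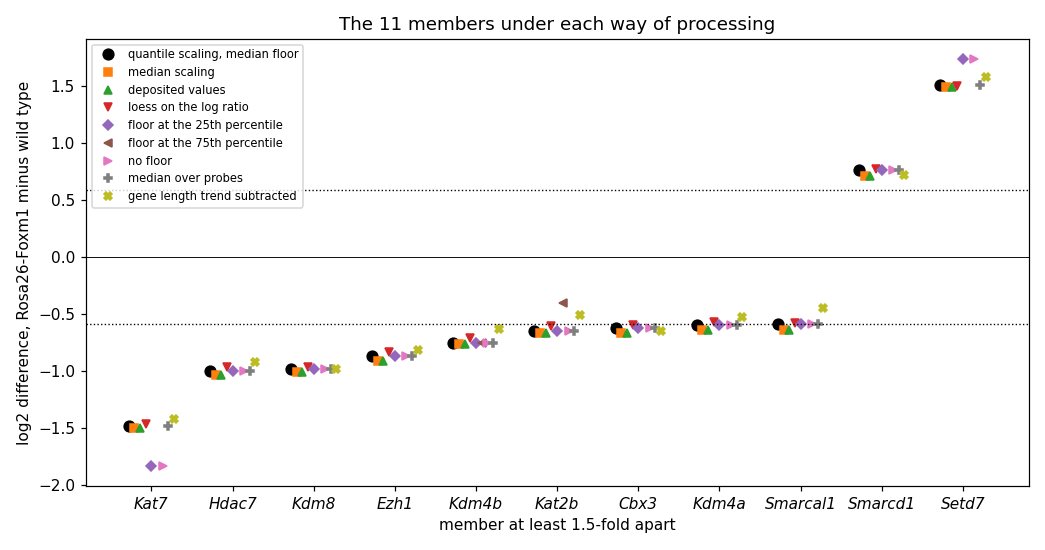
Log2 difference (vertical axis, Rosa26-Foxm1 minus wild type) of the 11 members at least 1.5-fold apart (horizontal axis) under the main processing (black) and each of the 8 alternatives in which the gene was measured; dotted lines mark 1.5-fold. The points of every gene lie on 1 side of 0, and those of Kat2b, Kdm4a and Smarcal1 lie on both sides of the lower line.

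The 11 members past 1.5-fold had the same sign under each of the 8 alternatives in which they were measured, and 8 of them were past that size in each of these. Not all of these alternatives could change a sign. A floor cannot reverse one, and each of the 11 had 1 probe, so the median over probes repeats the main value. The deposited values nearly repeat median scaling, and every alternative uses the same 2 arrays. The exceptions were Kat2b, from -0.67 to -0.40, Kdm4a, from -0.64 to -0.53, and Smarcal1, from -0.64 to -0.45. Of the 11, only Kdm4b and Kat2b were above a floor at the 75th percentile, so the other 9 have no value there.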

How the data were processed

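Lung RNA of the 2 pools was hybridised to 1 array each, with 1 label. Per the labels' protocols, DNase-treated total RNA was turned into digoxigenin-labelled cRNA with an Applied Biosystems chemiluminescent kit. The authors deposited linear intensities, 1 per probe, with a median of 1.00 on each array. No source used here gives the image software, background correction or scaling. Of 33012 probes, 14411 had 1 gene in the platform annotation, 247 had several and 18354 had none listed. Symbols were updated by gene ID to RefSeq (GRCm38.p6), and all 66 members matched.

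Log2 intensities were quantile normalised and floored at the 50th percentile. A gene was represented by its brightest probe and counted as measured if any probe was above the floor on 1 array. Folds and log2 differences against an array under the floor are lower bounds on the size. Genes at least 1.5-fold or 2-fold apart were counted, with no test; having 2 arrays limits the precision. The code was tested on simulated data. Members, gene lists and families were chosen with earlier results of these data known. Each member may be named; of other genes, those at the ends of the lists and the marker genes, with Eed, Suz12 and Foxm1 chosen after their values were seen. Python 3.11.15, pandas 2.3.3, numpy 2.4.6 and statsmodels 0.14.6 were used. Other settings tried were the deposited values, median scaling, loess (span 0.3), other floors, the median over probes, a gene length correction and the 2-fold size. The 2-fold counts by setting and marker sums without 1 gene were added after seeing the data.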

Additional observations from a re-analysis of the deposited data

How the results depend on the processing

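The number of members at least 1.5-fold lower, 9, was 7 with loess scaling and with the gene length trend subtracted, and 13 with a floor at the 25th percentile. It was 14 with no floor and 1 with a floor at the 75th percentile, where 34 members were measured. As shares beside all measured genes, these were 21.2% beside 14.4% with no floor and 2.94% beside 5.24% with the 75th percentile floor, so the members' excess was not seen there. The number higher, 2, was 4 with the 25th percentile as floor, 5 with none and 0 with the 75th. At the 2-fold size 1 was higher and 1 lower, or 1 and 3 with median scaling or in the deposited values. The counts were 2 and 3 with a 25th percentile floor, 3 and 4 with none, and 0 and 0 with the 75th. Lower shares were 5.26% beside 1.70% of all measured genes with median scaling, 4.62% beside 4.29% with the 25th percentile floor and 6.06% beside 5.99% with none. Higher shares in these 3 settings were 1.75% beside 1.94%, 3.08% beside 4.35% and 4.55% beside 5.73%. Restricted, by a choice made after seeing the data, to the 54 members above the floor on both arrays, 1 was higher and 8 were lower, and among the 34 above the 75th percentile on at least 1 array 0 and 2. All genes restricted likewise had 7.69% and 6.55% lower, beside 14.8% and 5.88% of the members. The floors differ in which members have a value. The median of the members, -0.17, was -0.12 both with loess scaling and after the length correction, between -0.18 and -0.15 otherwise, and below that of all measured genes in each of these. Of 622 values of single members, families and partner lists under the alternatives, 605 moved by less than the probe SD (for medians, that SD over the square root of the number of genes) and 17 by more, and no member past 1.5-fold changed sign. Many of these values could not move. A changed floor leaves a gene above it on both arrays as it was, and the median over probes alters only genes with several probes. The deposited values nearly repeat median scaling, so the count of 605 does not measure robustness. Among those 17, Dnmt3l was 1.20 and Kat7 -1.83 with the 25th percentile or no floor, and Cbx8 0.06 under a 75th percentile floor. The other 12 were medians. That of 4 other demethylases, -0.24, ran from -0.52 to 0.04, that of DNA methyltransferases, -0.03, was 0.34 and 0.59 with a lower or no floor, and that of 3 CHD remodellers, -0.38, was -0.16 with the median over probes. The medians of SWI/SNF-related genes, lysine demethylases and other methyltransferases moved to -0.07, -0.13 and -0.10. No paired analysis was possible because each group has 1 array. Dim probes limit what can be said, since 9 members had no difference above the floor.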

Other observations

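The 9 members below the floor on both arrays had normalised intensities under the floor, where values have no order and give no fold. In wild-type and Rosa26-Foxm1 lung, Dnmt1 was 0.25 and 0.60, Suv39h2 0.27 and 0.47, Smarcc1 0.50 and 0.65, and Kdm5d 0.35 and 0.40. The other 5 had Kat6b at 0.965 and 0.41, Kdm5c at 0.98 and 0.60, Smarca1 at 0.84 and 0.42, Setd5 at 0.72 and 0.38, and Kdm4d at 0.27 and 0.13.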
